A study of Mus musculus with 8 samples.

Results

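The tumour suppressor p53 is a transcription factor that DNA damage, oncogene activity and other stresses stabilise. It switches on genes that halt the cell cycle, genes that kill the cell through the mitochondrial or the death receptor route, and genes that feed back on p53 itself. The 10 genes described here are known p53 targets of these kinds: Pmaip1, Bbc3, Bax, Fas and Perp act in cell death, Mdm2, Ccng1 and Trp53inp1 regulate p53 activity, and Cdkn1a and Phlda3 restrain growth. They were taken by gene symbol from the 35976 genes of the deposited table. All 10 were present and all 10 were among the 18156 genes with enough reads to be tested.

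RNA was sequenced from whole mouse kidneys at postnatal day 3 in 8 libraries. The YAP group carries Slc12a3 Cre/+ together with C1 YAP/+ and holds 4 libraries, 2 female and 2 male. The Ctrl group carries Slc12a3 Cre/+ with C1 +/+ and has the same makeup, so that both genotypes share the Cre allele and differ at C1, which the labels do not explain. Slc12a3 encodes the thiazide-sensitive salt transporter that marks the distal convoluted tubule, and a Cre expressed from it would act in cells of that segment, a small part of a whole kidney. The labels give neither the construct behind the Cre nor the species of the YAP sequence. Each library's depth was worked back from the RPKM steps, at 78208330 to 87073093 reads in replicate 1 libraries and 22831578 to 25166286 in replicate 2 libraries, so that replicate number is also a difference in depth. The labels do not say whether the libraries of a group came from separate animals, and p-values therefore measure the spread between these libraries. Levels are RPKM, reads scaled to gene length and to library depth, divided by a scaling factor per library, and are called scaled RPKM. Across all genes tested, 13.2% were higher and 13% lower in YAP kidneys at an adjusted p under 0.05 (limma), with a median log2 fold change of 0.01.

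Markers of each kidney segment listed had reads in every library, and many but not all cell type markers moved with genotype. The summed level of 10 macrophage markers ran from 278 to 335 scaled RPKM in YAP kidneys and from 71.6 to 88.9 in Ctrl kidneys, with 9 rising and 1 falling. The sum of 9 proximal tubule markers ran from 289.6 to 359 in YAP and from 1429 to 1604 in Ctrl, with all 9 falling. The 6 distal convoluted tubule markers summed to 28.0 to 54.4 in YAP and 133 to 174 in Ctrl, with 1 rising and 5 falling. Sums were also lower without overlap for 4 thick ascending limb markers (195 to 278 in YAP and 370 to 487 in Ctrl, 3 falling), 4 podocyte markers (89.8 to 106 in YAP and 129 to 150 in Ctrl, 3 falling) and 6 endothelial markers (102 to 129 in YAP and 163 to 189 in Ctrl, 4 falling). The 6 neutrophil markers summed to 26.5 to 41.7 in YAP and 14.8 to 27.9 in Ctrl, with 1 of 4 tested rising. Among the 9 lymphocyte markers, Cd3e, Cd3d and Nkg7 had 0 reads in at least 1 library, and the list summed to 2.29 to 2.75 in YAP and 1.71 to 2.36 in Ctrl, with 4 of 7 tested rising and 1 falling. In bulk tissue, fewer cells of a type and less RNA per cell cannot be told apart, and the part of these shifts in the results below was not tested.

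Matches to the p53 response element were looked for in the promoter windows of RefSeq (GRCm38.p6, the assembly of mm10), each spanning 250 bases before to 50 bases after a transcription start. Windows were found for 7 of the 10 genes, 10 windows in all, the exceptions being Pmaip1, Perp and Trp53inp1. The p53 response element was searched for as a pair of 10-base half-sites RRRCWWGYYY (R is A or G, W is A or T, Y is C or T). The half-sites had 0 or 1 base between them, and wider spacing was not searched. Both strands were searched, the C and G of each CWWG core were required, and any other departure counted as 1 mismatch. Cdkn1a and Ccng1 each held a match with 1 mismatch over the 20 bases, which 0.110% of all 32851 windows equalled or bettered. Bax held a match with 2 mismatches (0.682% of windows) and Bbc3 with 3 (2.82% of windows). Where a gene had more than 1 window, these are its best. The other Bbc3 windows had 6 mismatches (42.2% of windows) and 8 (71.8%), and the second Cdkn1a window 7 (59.8%). The best pair in the Phlda3 window had 5 mismatches (22.9% of windows), that in the Mdm2 window 9 (78.5%), and the Fas window held no pair of cores, as did 16.1% of windows. The best windows of Cdkn1a, Ccng1, Bax and Bbc3 are shown because they hold the closest matches, under a limit of 3 mismatches set after the matches were seen. The 250 bases before the start are given 5′ to 3′ on the gene's strand, with the half-sites in capitals: Cdkn1a at chr17:29090729-29090978 (+ strand), Ccng1 at chr11:40755287-40755536 (- strand), Bax at chr7:45466899-45467148 (- strand) and Bbc3 at chr7:16309333-16309582 (+ strand).
Cdkn1a: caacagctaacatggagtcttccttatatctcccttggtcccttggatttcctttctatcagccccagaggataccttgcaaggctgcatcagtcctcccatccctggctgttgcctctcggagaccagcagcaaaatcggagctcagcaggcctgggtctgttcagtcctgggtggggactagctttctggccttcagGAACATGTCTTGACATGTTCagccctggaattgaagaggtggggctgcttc
Ccng1: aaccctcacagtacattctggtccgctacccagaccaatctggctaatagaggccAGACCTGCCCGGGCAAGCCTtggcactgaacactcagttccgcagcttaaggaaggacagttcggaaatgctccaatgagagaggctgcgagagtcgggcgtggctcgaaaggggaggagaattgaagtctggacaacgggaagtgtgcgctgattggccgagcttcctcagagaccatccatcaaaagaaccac
Bax: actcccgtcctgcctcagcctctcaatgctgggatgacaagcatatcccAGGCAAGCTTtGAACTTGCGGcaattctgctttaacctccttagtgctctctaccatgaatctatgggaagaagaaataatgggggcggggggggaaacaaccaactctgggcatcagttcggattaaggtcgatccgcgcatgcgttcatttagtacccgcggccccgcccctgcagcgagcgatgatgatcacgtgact
Bbc3: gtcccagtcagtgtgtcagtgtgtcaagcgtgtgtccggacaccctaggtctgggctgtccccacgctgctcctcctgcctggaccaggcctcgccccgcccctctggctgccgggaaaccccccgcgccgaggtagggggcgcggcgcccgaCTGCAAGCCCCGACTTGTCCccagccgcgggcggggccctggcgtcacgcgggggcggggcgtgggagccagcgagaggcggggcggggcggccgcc
The Cdkn1a match begins 51 bases before the start of its first RefSeq window and 2841 bases before that of its second. The Ccng1 match begins 195 bases, the Bax match 201 bases and the Bbc3 match 97 bases before the transcription start of the window shown. For Bbc3 this start is that of the first of its RefSeq windows, and it lies inside the gene span given below. Bases just after the start were found in a GENCODE transcript of the gene for Cdkn1a, Ccng1 and Bax, but not for Bbc3. A match describes the letters only and is no evidence of binding in these kidneys. Bases outside these windows were not searched, so the lack of a close match does not show that a gene has no element.

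In YAP kidneys 7 of the 10 genes rose and 0 fell, against 13.2% of all tested genes higher and 13% lower. Pmaip1 stood apart in size with a 14.4-fold rise, Phlda3 rose 2.06-fold, and Perp, Bbc3, Cdkn1a, Bax and Mdm2 rose between 1.32-fold and 1.55-fold. Fas, Ccng1 and Trp53inp1 did not pass. At an unadjusted p under 0.05 the counts were again 7 higher and 0 lower, and voom on the recovered reads also gave 7 and 0, against 13.8% of tested genes higher. The median log2 fold change of the 10 genes was 0.49, against 0.01 over all tested genes. In 5 of the 10 the genotypes did not overlap, all with YAP higher, against 15.7% of tested genes. Fold changes are on a log2(scaled RPKM + 0.1) scale, which understates those of genes with low levels. For Cdkn2a, at 0.180 scaled RPKM in Ctrl kidneys, it was 2.74 on this scale and 3.19 with voom, and for Tnf 1.73 and 2.51.

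**Figure D1:**
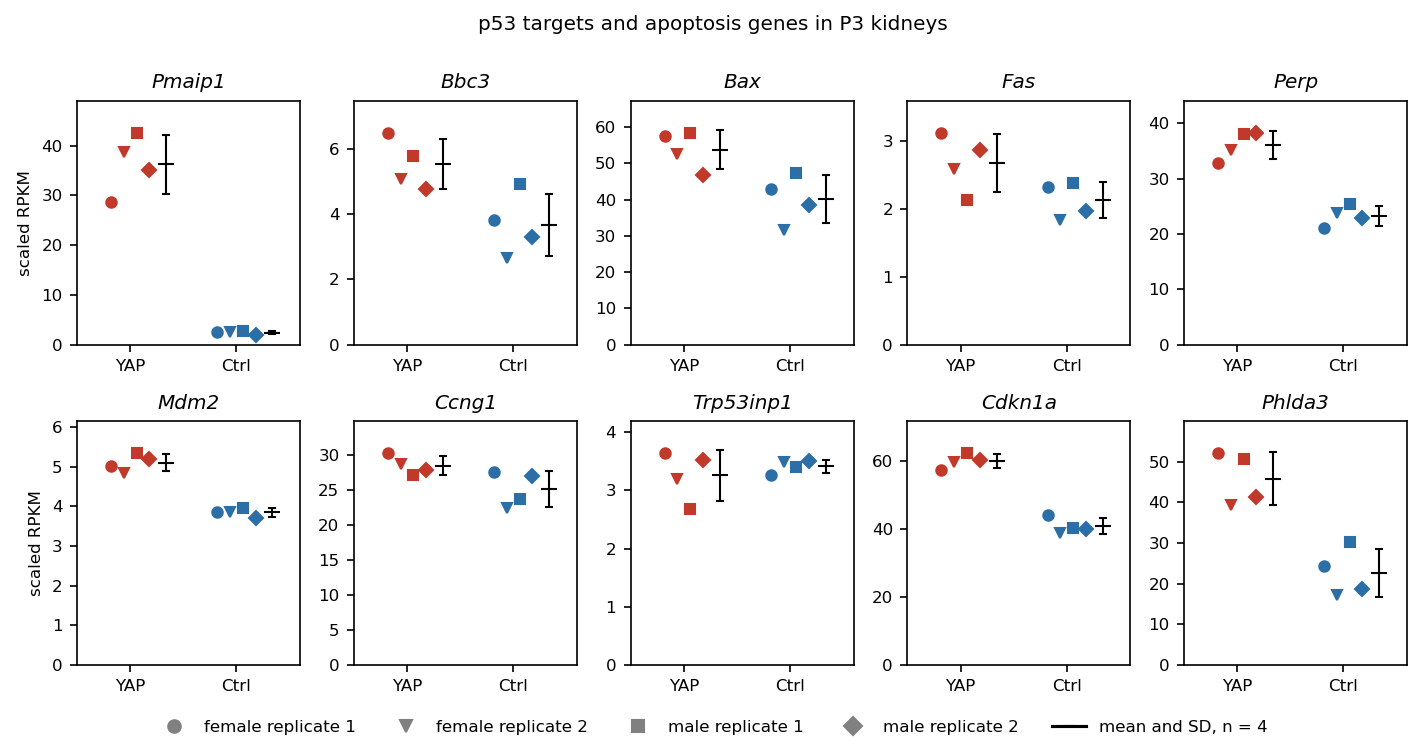
Scaled RPKM of each of the 10 genes in every library, YAP (red) left of Ctrl (blue), with marker shape giving sex and replicate number and black bars the mean and SD (n = 4). Pmaip1 lies between 28.6 and 42.6 in YAP kidneys and between 1.91 and 2.77 in Ctrl kidneys, while the genotypes overlap in Bbc3, Bax, Fas, Ccng1 and Trp53inp1.

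Pmaip1 encodes NOXA, a BH3-only protein that neutralises MCL-1 and so frees the killers BAX and BAK. It lies on chromosome 18 from 66458533 to 66465565 (GENCODE M21, GRCm38). Its level was 28.6 and 38.8 scaled RPKM in YAP females and 42.6 and 35.0 in YAP males, against 2.53 and 2.46 in Ctrl females and 2.77 and 1.91 in Ctrl males. Every YAP library was far above every Ctrl library. Pmaip1 rose by 3.85 ± 0.15 (SE) on the log2 scale, and the fold had a 95% interval of 11.4 to 18.3 (limma, adjusted p = 1.39e-06). Only 0.121% of tested genes had a larger log2 fold change. The counts behind it were 20717 reads over the YAP libraries and 1404 over the Ctrl libraries, with no fewer than 121 in any library.

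The rise moved Pmaip1 within the set. With a mean of 36.3 ± 5.96 (SD, n = 4) it was the fourth highest of the 10 genes in YAP kidneys, beside Perp at 36.1 ± 2.55, whose range it overlapped. In Ctrl kidneys, at 2.42 ± 0.362 (SD, n = 4), it ranked 9 of 10, just above Fas, whose range it also overlapped. Cdkn1a and Bax had the highest means in both genotypes, and Fas the lowest. Between neighbours in the order of means, ranges did not overlap at 3 steps in YAP kidneys, Perp to Ccng1, Ccng1 to Bbc3 and Mdm2 to Trp53inp1, and at 3 steps in Ctrl kidneys, Bax to Ccng1, Phlda3 to Mdm2 and Trp53inp1 to Pmaip1.

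Bbc3 encodes PUMA, a BH3-only protein that binds all antiapoptotic BCL-2 proteins (chromosome 7, 16308393 to 16318205). It stood at 6.48 and 5.07 scaled RPKM in YAP females and 5.78 and 4.76 in YAP males, against 3.82 and 2.65 in Ctrl females and 4.91 and 3.29 in Ctrl males. The highest Ctrl library, male replicate 1, lay above the lowest YAP library, male replicate 2. The rise was 1.52-fold (log2 0.60 ± 0.18 SE, limma, adjusted p = 0.0419). Bax encodes the pore-forming protein that BH3-only proteins switch on (chromosome 7, 45461697 to 45466898). It stood at 57.5 and 52.5 scaled RPKM in YAP females and 58.4 and 46.7 in YAP males, against 42.9 and 31.7 in Ctrl females and 47.3 and 38.4 in Ctrl males. Here too male Ctrl replicate 1 exceeded male YAP replicate 2. The rise was 1.35-fold (log2 0.43 ± 0.13 SE, limma, adjusted p = 0.0431).

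Both calls lay near the threshold and changed with the libraries used. They were lost without any single library other than male YAP replicate 2 or male Ctrl replicate 1, with adjusted p from 0.0626 to 0.116 for Bbc3 and from 0.0529 to 0.122 for Bax. Within the replicate 1 libraries alone Bbc3 had a log2 fold change of 0.49 (adjusted p = 0.0784) and Bax of 0.36 (0.0668). Within the replicate 2 libraries both passed, at 0.72 (0.0126) and 0.50 (0.0287). Without a filter on low reads neither passed (0.0757 and 0.0756). With replicate number as a block both passed (limma, adjusted p = 0.00563 for Bbc3 and 0.00633 for Bax). With 1 library left out the log2 fold change stayed at 0.46 to 0.76 for Bbc3 and 0.32 to 0.53 for Bax.

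Fas, the death receptor through which FAS ligand triggers caspase 8, did not pass. It stood at 3.12 and 2.58 scaled RPKM in YAP females and 2.12 and 2.87 in YAP males, against 2.33 and 1.83 in Ctrl females and 2.38 and 1.97 in Ctrl males (chromosome 19, 34290666 to 34327772). The genotypes overlapped, and the 1.24-fold difference had a 95% interval of 0.988 to 1.55 (limma, adjusted p = 0.156). Libraries held 84 to 495 Fas reads, the fewest of the 10 genes. Perp, a membrane protein of desmosomes that p53 can use in cell death, rose in every library of YAP kidneys relative to every Ctrl library. It stood at 32.9 and 35.2 scaled RPKM in YAP females and 38.0 and 38.3 in YAP males, against 21.0 and 23.8 in Ctrl females and 25.3 and 22.9 in Ctrl males (chromosome 10, 18845020 to 18857073). The rise was 1.55-fold with an interval from 1.38 to 1.74 (limma, adjusted p = 0.000348).

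Among the genes that act back on p53, 1 of 3 passed. Mdm2 encodes the ubiquitin ligase that marks p53 for destruction (chromosome 10, 117688875 to 117710758). It stood at 5.02 and 4.85 scaled RPKM in YAP females and 5.34 and 5.19 in YAP males, against 3.86 and 3.86 in Ctrl females and 3.96 and 3.71 in Ctrl males. The groups did not overlap, and the rise was 1.32-fold (log2 0.40 ± 0.07 SE, limma, adjusted p = 0.00416). The log2 fold change was 0.40 within each replicate number, where Mdm2 did not pass (adjusted p 0.0656 in replicate 1 and 0.142 in replicate 2).

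Ccng1, cyclin G1, which recruits a phosphatase to MDM2, had 30.3 and 28.7 scaled RPKM in YAP females and 27.1 and 27.9 in YAP males, against 27.6 and 22.4 in Ctrl females and 23.7 and 27.0 in Ctrl males (chromosome 11, 40748552 to 40755311). Its 1.14-fold difference had an interval of 0.988 to 1.30 (limma, adjusted p = 0.170). Its promoter window, shown above, matched the p53 element with as few mismatches as that of Cdkn1a. The mismatch lay inside a CWWG core in Ccng1 and outside the cores in Cdkn1a. Trp53inp1, which promotes p53 phosphorylation and autophagy, had 3.64 and 3.20 in YAP females and 2.67 and 3.52 in YAP males, against 3.27 and 3.48 in Ctrl females and 3.40 and 3.50 in Ctrl males (chromosome 4, 11156431 to 11174379). Its log2 fold change was -0.07 with an interval from -0.32 to 0.17 (limma, adjusted p = 0.679), and male YAP replicate 1 was the lowest library.

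Both growth-restraining genes rose without overlap. Cdkn1a encodes p21, the inhibitor of cyclin-dependent kinases that carries out p53 arrest (chromosome 17, 29090976 to 29100727). It stood at 57.4 and 59.7 scaled RPKM in YAP females and 62.3 and 60.3 in YAP males, against 44.2 and 38.8 in Ctrl females and 40.3 and 39.9 in Ctrl males. The rise was 1.47-fold with an interval from 1.31 to 1.64 (limma, adjusted p = 0.000609). Phlda3 encodes a pleckstrin homology protein that competes with AKT for membrane lipids (chromosome 1, 135766119 to 135769136). It stood at 52.1 and 39.3 scaled RPKM in YAP females and 50.5 and 41.2 in YAP males, against 24.4 and 17.1 in Ctrl females and 30.1 and 18.6 in Ctrl males. The rise was 2.06-fold with an interval from 1.54 to 2.76 (limma, adjusted p = 0.00352).

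Phlda3, Bax and Bbc3 also differed by replicate number. In both genotypes, each replicate 1 library stood above each replicate 2 library of the same genotype. For Phlda3 the log2 difference of replicate 1 minus replicate 2 was 0.35 in YAP and 0.60 in Ctrl kidneys, for Bax 0.23 in YAP and 0.37 in Ctrl kidneys, and for Bbc3 0.31 in YAP and 0.54 in Ctrl kidneys. Within replicate 1 and replicate 2 libraries, Phlda3 had log2 fold changes of 0.92 and 1.17, Pmaip1 of 3.67 and 4.03, Perp of 0.61 and 0.65, and Cdkn1a of 0.50 and 0.61, and all passed in both. Of the 10 genes, 4 were called within replicate 1 and 6 within replicate 2, against 8.8% and 8.82% of tested genes called higher there.

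The genotype effect was then taken within each sex, from a model of the 4 groups of genotype and sex in which the spread is estimated jointly. In females 4 of the 10 genes rose (Pmaip1, Perp, Cdkn1a and Phlda3) against 6.01% of tested genes called higher, and in males 4 rose (Pmaip1, Perp, Cdkn1a and Mdm2) against 7.85%. The female count was 1 without female YAP replicate 2 and 2 without female YAP replicate 1 or female Ctrl replicate 2, and the male count was 2 without male YAP replicate 1. None of the 10 fell in either sex, at an adjusted or an unadjusted p under 0.05 (limma). Pmaip1 was 12.9-fold higher in YAP females and 16.1-fold higher in YAP males. Phlda3 missed the threshold in males (log2 0.94, limma, adjusted p = 0.0564) and Mdm2 in females (0.35, 0.0876). The largest difference between the sexes was that of Bbc3, with log2 0.83 in females and 0.38 in males, an interaction of 0.45 with an interval from -0.37 to 1.28 (limma, adjusted p = 0.948). No gene of the 10, and 0 of 18156 genes (0% called), passed for the interaction, while 554 genes and none of the 10 had an unadjusted p under 0.05 (limma).

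**Figure D2:**
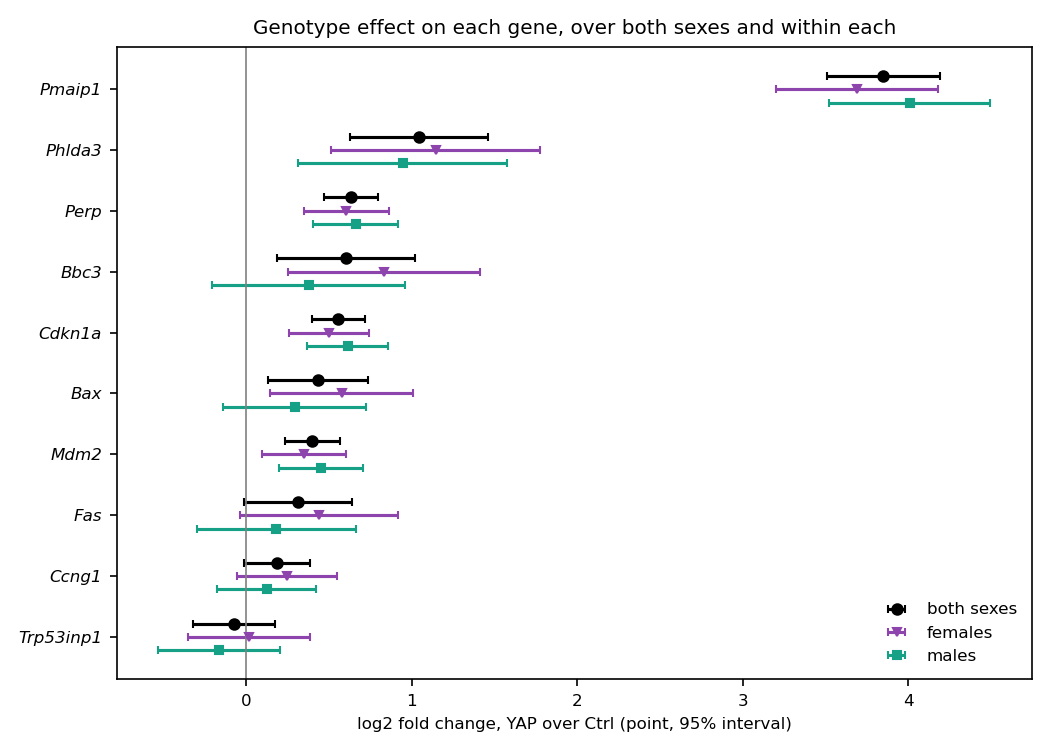
Log2 fold change of YAP over Ctrl for each gene with its 95% interval, over both sexes (black), within females (purple) and within males (green). Pmaip1 lies at 3.69 in females and 4.01 in males, far right of the other 9, and the intervals of Fas, Ccng1 and Trp53inp1 include 0 in each of the 3 estimates.

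Trp53 itself, the p53 gene, did not pass. It had 50.8 and 47.4 scaled RPKM in YAP females and 54.6 and 43.2 in YAP males, against 46.0 and 45.6 in Ctrl females and 40.6 and 43.3 in Ctrl males, and its fold had an interval from 0.970 to 1.28 (limma, adjusted p = 0.244). The genotypes overlapped. These values are of its mRNA, and p53 is regulated mainly at the level of the protein. Of 12 genes of the p53 family and its regulators, 2 rose and 1 fell, near the 13.2% and 13% of all tested genes. Cdkn2a, whose overlapping transcripts encode p16 and the MDM2 inhibitor ARF and are not separated here, averaged 1.76 ± 0.399 scaled RPKM in YAP and 0.180 ± 0.0775 in Ctrl kidneys (SD, n = 4), a 6.67-fold rise (limma, adjusted p = 4.27e-05).

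Mdm4, a partner of MDM2, rose 1.20-fold (limma, adjusted p = 0.0349), a call lost without any 1 of the 8 libraries (adjusted p 0.0604 to 0.0958) and in both replicate numbers (0.291 and 0.302). Trp73, a p53 paralog, was the gene that fell, at 0.0810 ± 0.0208 in YAP and 0.166 ± 0.0190 in Ctrl kidneys (SD, n = 4; 108 reads in YAP and 197 in Ctrl; limma, adjusted p = 0.0122). It passed in neither replicate number alone (0.108 and 0.137). Trp63, the other paralog, averaged 0.229 in YAP and 0.294 in Ctrl kidneys and did not pass (adjusted p = 0.378). Usp7, which deubiquitinates p53 and MDM2, had a log2 fold change of 0.04 (adjusted p = 0.792).

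Of 24 further known p53 targets, 13 rose, 1 fell and 10 did not pass, against 13.2% of all tested genes higher and 13% lower. Their median log2 fold change was 0.28. Within the replicate 1 libraries alone 10 rose and 0 fell, against 8.8% of tested genes called higher there. Within the replicate 2 libraries alone 8 rose and 0 fell, against 8.82%. The highest rises were of Gdf15, Sfn and Plk2. Gdf15, a stress-induced secreted factor, averaged 47.1 ± 9.33 scaled RPKM in YAP and 4.51 ± 1.10 in Ctrl kidneys (SD, n = 4), a 10.3-fold rise (limma, adjusted p = 8.72e-06). Sfn, the cell cycle regulator 14-3-3 sigma, averaged 81.1 ± 4.59 in YAP and 8.71 ± 2.04 in Ctrl kidneys, a 9.38-fold rise (adjusted p = 2.81e-06). Plk2, a polo-like kinase, averaged 70.9 ± 4.74 in YAP and 18.1 ± 1.98 in Ctrl kidneys, a 3.91-fold rise (adjusted p = 3.48e-06).

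The gene of this list that fell was Ephx1, a detoxifying epoxide hydrolase (log2 -0.42, limma, adjusted p = 0.0173). It did not pass without female Ctrl replicate 1 (adjusted p 0.0600) or in either replicate number alone (0.104 and 0.0555). Ei24, at 67.6 ± 2.29 in YAP and 70.1 ± 4.60 in Ctrl kidneys, and Rprm, a G2 arrest gene at 15.8 ± 3.22 in YAP and 19.5 ± 2.62 in Ctrl kidneys, did not pass (adjusted p 0.655 and 0.0880).

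**Figure D3:**
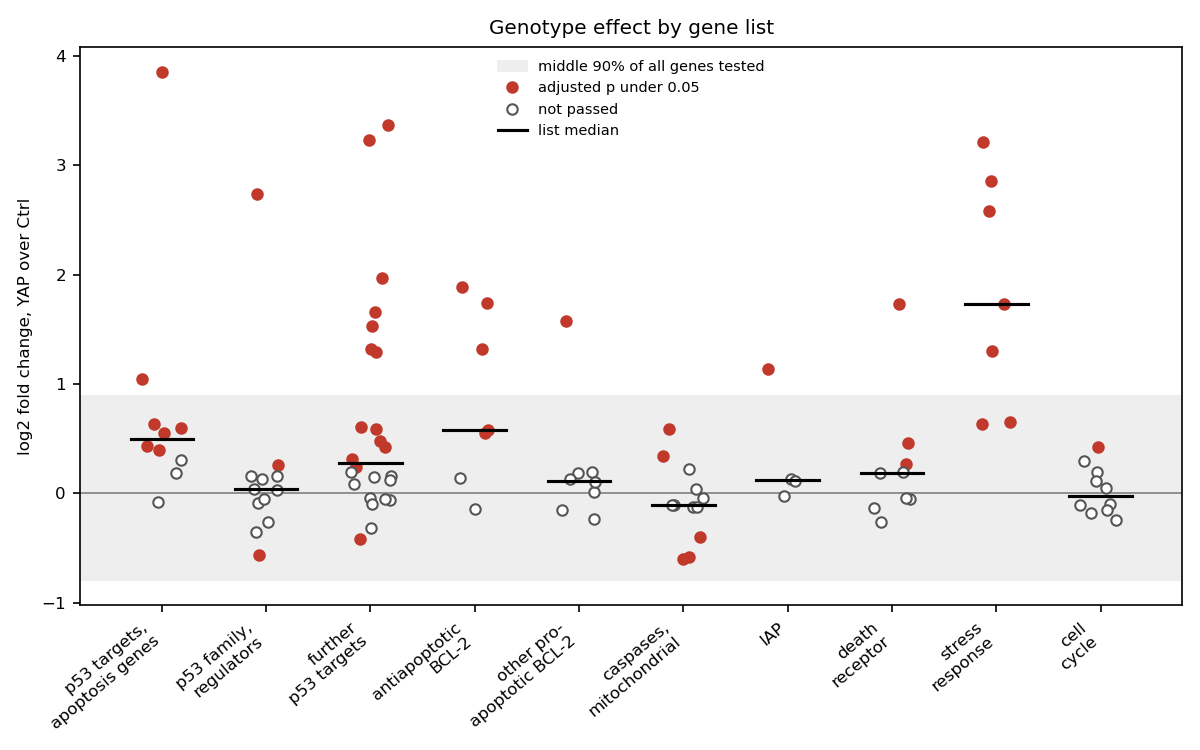
Log2 fold change of YAP over Ctrl for every tested gene of the 10 genes described and of 9 related lists, filled where the adjusted p was under 0.05, with the list median as a black bar. The shaded band holds the middle 90% of all tested genes and the grey line their median of 0.01. The medians are 0.49 for the p53 targets and apoptosis genes and -0.10 for the caspases and mitochondrial proteins.

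Pmaip1, Bbc3 and Bax belong to the BCL-2 family, whose antiapoptotic members hold the killers in check. Of 7 antiapoptotic genes 5 rose and 0 fell, against 13.2% of all tested genes higher and 13% lower. The counts were the same at an unadjusted p under 0.05 and with voom, where 13.8% of tested genes were higher. Mcl1, the main partner of NOXA, stood at 78.9 and 76.3 scaled RPKM in YAP females and 75.3 and 77.2 in YAP males, against 52.1 and 50.2 in Ctrl females and 51.9 and 51.6 in Ctrl males. It rose 1.49-fold without overlap (limma, adjusted p = 0.000214). Bcl2l1, which encodes BCL-XL, rose 1.47-fold (adjusted p = 0.00136). Mcl1 and Bcl2l1 were chosen for description after their values were seen.

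The remaining 3 that rose were the near-identical copies Bcl2a1a, Bcl2a1b and Bcl2a1d, which leukocytes express and among which reads may be split. Bcl2a1b averaged 3.05 ± 0.887 in YAP and 0.846 ± 0.287 in Ctrl kidneys, and the other two reached at most 1.05 in any library. The Bcl2a1a call was lost without female YAP replicate 2 (adjusted p 0.0554) or male YAP replicate 1 (0.0680) and in the replicate 2 libraries (0.279), and the Bcl2a1d call in the replicate 1 libraries (0.058). Bcl2, at 3.87 ± 0.465 in YAP and 4.28 ± 0.501 in Ctrl kidneys, and Bcl2l2, at 5.31 ± 0.428 in YAP and 4.81 ± 0.483 in Ctrl kidneys, did not pass (adjusted p 0.454 and 0.311). The macrophage marker sums given above moved the same way as the Bcl2a1 genes, and their part in these rises was not tested.

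Of 8 other proapoptotic BCL-2 genes, only Bok passed in the main test, near the 13.2% of all tested genes called higher. Bok, a relative of BAX and BAK, stood at 145 and 141 scaled RPKM in YAP females and 187 and 143 in YAP males, against 55.5 and 41.9 in Ctrl females and 66.2 and 45.2 in Ctrl males. It rose 2.98-fold (limma, adjusted p = 0.000116) and had the highest mean of the listed family genes in both genotypes. In Ctrl kidneys that mean was 52.2, beside 51.4 for Mcl1, whose range it overlapped. Bak1, at 41.0 ± 1.51 in YAP and 35.8 ± 2.07 in Ctrl kidneys (adjusted p = 0.0686), and Bad, at 36.5 ± 2.73 in YAP and 36.7 ± 8.44 in Ctrl kidneys (0.957), did not pass.

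**Figure D4:**
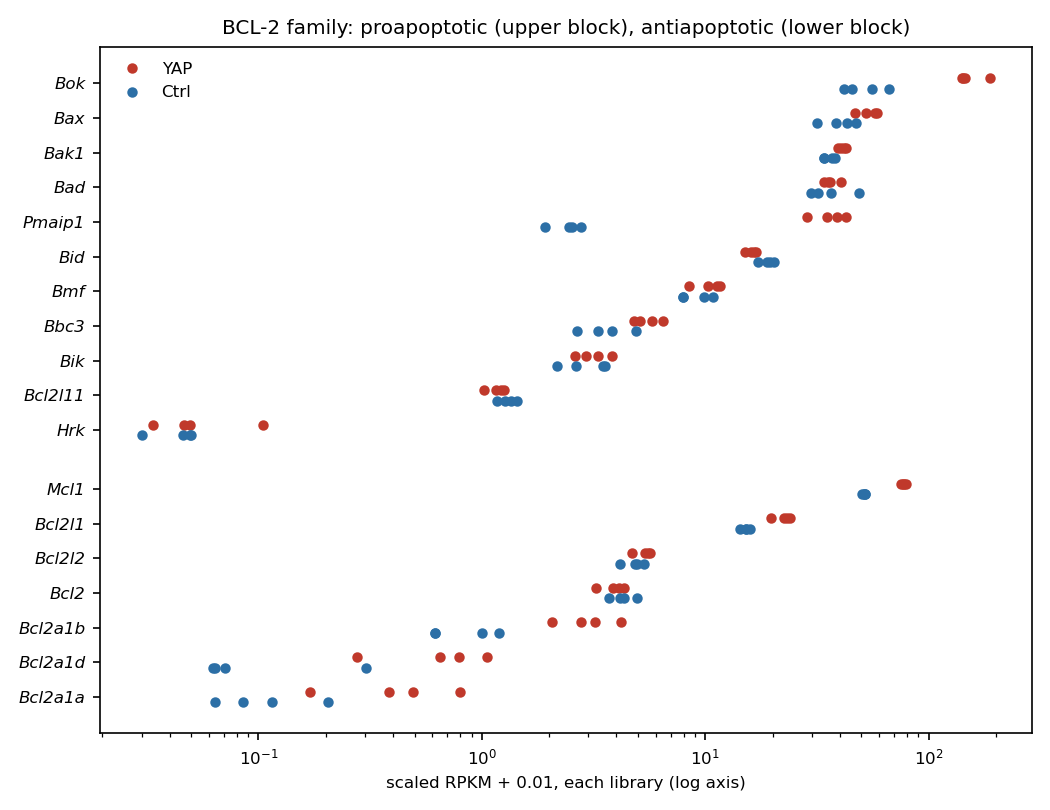
Scaled RPKM + 0.01 in each library on a log axis for the BCL-2 family, with YAP (red) above Ctrl (blue) for each gene, proapoptotic genes in the upper block and antiapoptotic genes in the lower. Pmaip1 shows the widest gap between genotypes, with means of 36.3 in YAP and 2.42 in Ctrl kidneys. Bok and Mcl1 have the highest means of their blocks in both genotypes.

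Of 12 genes of the apoptosome, the caspases and mitochondrial death proteins, 2 rose and 3 fell, beside 13.2% and 13% of all tested genes. Their median log2 fold change was -0.10. Diablo, an inhibitor of IAP proteins, averaged 33.8 ± 2.72 scaled RPKM in YAP and 34.9 ± 3.15 in Ctrl kidneys (SD, n = 4) and did not pass (limma, adjusted p = 0.779). The genes that fell were Endog, a mitochondrial nuclease (log2 -0.60, adjusted p = 0.00297), Cycs, cytochrome c (-0.58, 0.0120), and Aifm1, a mitochondrial flavoprotein (-0.40, 0.0146). Aifm1 passed in neither replicate number alone (adjusted p 0.0549 and 0.0546) and was chosen for description after its values were seen. Cytochrome c and AIFM1 also serve the respiratory chain. Those that rose were Htra2, a mitochondrial protease (0.59, 0.00425), and Apaf1, the apoptosome scaffold (0.34, 0.0394). The Apaf1 call was lost without any single library other than female YAP replicate 1 (adjusted p 0.0544 to 0.108), in both replicate numbers (0.185 and 0.191), on RPKM as deposited (0.0542) and without a read filter (0.0590).

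Of 4 inhibitor of apoptosis genes, Birc3, an NF-kappaB target, rose 2.21-fold (limma, adjusted p = 0.000618), while Birc5 (log2 0.11, 0.595) and Birc2 (0.13, 0.370) did not pass. Of 9 tested death receptor genes 3 rose and 0 fell, beside 13.2% of all tested genes higher and 13% lower. The counts were the same at an unadjusted p under 0.05 and with voom, where 13.8% of tested genes were higher. Tnfrsf1a, the TNF receptor, averaged 67.4 ± 2.92 in YAP and 48.8 ± 2.13 in Ctrl kidneys, a 1.38-fold rise (limma, adjusted p = 0.00143). Tnf, its ligand, was low in both genotypes, at 0.580 ± 0.0960 in YAP and 0.109 ± 0.0574 in Ctrl kidneys (adjusted p = 0.000553). Traf2, an adaptor, rose by 0.27 (0.0237), a call lost without female YAP replicate 1 (adjusted p 0.0786), female YAP replicate 2 (0.0533), male YAP replicate 1 (0.0728), either female Ctrl library (0.0776 and 0.0547) or male Ctrl replicate 2 (0.0616), and in both replicate numbers (0.128 and 0.411). Fasl, the ligand of FAS, had 5 reads over the YAP and 5 over the Ctrl libraries and was not tested. The adaptors Tradd (log2 0.20, adjusted p = 0.385) and Fadd (-0.05, 0.771) did not pass.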

How the data were processed

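Poly(A) RNA of mouse kidney was sequenced in 8 libraries, and the authors deposited 1 table of RPKM values with gene lengths. STAR, featureCounts and mm10 are named in the submitters' processing notes. Tool versions, annotation, strandedness and the handling of multimapping reads were not stated there, so overlapping, antisense and near-identical genes carry that uncertainty. RPKM times length gave whole multiples of 1 step per library for 100% of 179720 nonzero values (within 0.01 of a read), from which reads and depth were recovered.

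Genes with at least 0.2 CPM in 2 libraries and 15 reads in all were tested (18156). RPKM was divided by trimmed-mean-of-M-values factors (0.975 to 1.02). Limma 3.58.1 (R 4.3.3, trend and robust options) modelled log2 of scaled RPKM plus 0.1 on genotype and sex, or on the 4 group means for effects within sex and the interaction. The Benjamini-Hochberg adjustment ran over all genes tested, at a threshold of 0.05. The scripts were checked on simulated data. Alternatives were pseudocounts of 0.01 and 1, filters, scaling, voom on recovered reads (5045 genes called), libraries left out, replicate number as a block or taken alone, and no sex term.

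The 10 genes and all lists were chosen with earlier results of these data known. Besides them, Trp53, Mdm4, Trp63 and Trp73, each list contributed to the text up to 3 rises and 2 falls of the largest size past the threshold and up to 2 of the most abundant genes that did not pass. Single-gene results of some list members are not reported here. Gene positions are from GENCODE M21 (GRCm38) and promoter windows from RefSeq (GRCm38.p6).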

Additional observations from a re-analysis of the deposited data

Results flagged for a closer look

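None of the 10 genes had a library standing apart from its genotype. In 5 of the 98 groups of 4 libraries checked among the named genes, 1 library lay further from the other 3 than Dixon's 95% limit of its range, which chance passes in about 1 in 20 groups. Bok was at 187 scaled RPKM in male YAP replicate 1, above the 141 to 145 of the other YAP libraries. Atf3 was at 25.8 in male YAP replicate 2, above 23.2 to 23.6. Cdkn2a was at 0.296 in female Ctrl replicate 1, above the 0.127 to 0.151 of the other Ctrl libraries, and Bcl2a1d in the same library at 0.292, above 0.0528 to 0.0605. Apaf1 was at 2.49 in male Ctrl replicate 1, below 3.04 to 3.12.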

How the results depend on the processing

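Pmaip1, Perp, Cdkn1a and Phlda3 passed in the main test and in all 19 alternatives for the effect over both sexes. The count of the 10 genes called was 4 in replicate 1 libraries alone and 5 to 7 with 1 library left out. Over all genes, 4745 were called, 3110 with replicate 2 libraries alone and 3610 to 4846 with 1 library left out. With 1 library left out the count ran from 917 to 2237 within females, from 1388 to 2585 within males and from 0 to 1 for the interaction, which also gave 1 gene with a pseudocount of 1. Deviations of same-numbered libraries correlated over genes at -0.00275 (female YAP with male YAP) to 0.379 (female Ctrl with male Ctrl). Replicate number thus went with a shared shift in some pairs of groups, which the main model leaves out. With replicate number as a block 5473 genes were called over both sexes, 1 for the interaction, and 7 of the 10 genes, with Rprm (adjusted p = 0.0311) and Bak1 (0.0482; 0.0499 with no sex term) gained. Within sexes the block called 6 of the 10 genes in females, with Bbc3 (0.0043) and Bax (0.0092) gained, and 5 in males, with Phlda3 (0.0017) gained.

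With 1 library left out, the log2 fold change spanned 0 for Trp53inp1 over both sexes (-0.13 to 0.0213), in females (-0.0736 to 0.108) and in males (-0.356 to 0.0277), and its interaction did so too (-0.0107 to 0.373). It also spanned 0 for Fas in males (-0.0285 to 0.389), Usp7 (-0.0304 to 0.107), Bad (-0.0818 to 0.172), Diablo (-0.118 to 0.0159) and Fadd (-0.116 to 0.055), and for the interactions of Perp (-0.147 to 0.0344), Ccng1 (-0.0265 to 0.274) and Phlda3 (-0.147 to 0.546). Sign also changed for Usp7 (-0.0475) and Diablo (0.0316) in replicate 2 libraries, for Bcl2 (0.0163) and Bad (-0.142) in replicate 1 libraries, and for Bad with voom (-0.0015). The cause was not tested, and none of these passed in the main test. Log2 fold changes of low genes depend on the pseudocount, with Trp73 at -0.97 with 0.01 and -0.11 with 1, and with a pseudocount of 1 Cdkn2a was at 1.21, Bcl2a1d at 0.58, Bcl2a1b at 1.12, Bcl2a1a at 0.37, Tnf at 0.51, Trib3 at 1.80 and Chac1 at 1.52.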

Other observations

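Other programmes were measured beside the p53 targets. All 7 integrated stress response genes rose in YAP kidneys, against 13.2% of all tested genes higher, with a median log2 fold change of 1.73. All 7 also rose within replicate 1 and within replicate 2 libraries, against 8.8% and 8.82% of tested genes higher there. Atf3, a stress-induced transcription factor, averaged 24.0 ± 1.21 scaled RPKM in YAP and 2.55 ± 0.601 in Ctrl kidneys (SD, n = 4), a 9.24-fold rise (limma, adjusted p = 3.13e-06). Trib3, a pseudokinase, rose 7.26-fold (3.35e-05) and Chac1, a glutathione-degrading enzyme, 5.98-fold (6.70e-05).

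Of 10 cell cycle genes 1 rose and 0 fell (limma; the counts were the same at an unadjusted p under 0.05 and with voom), near the 13.2% of all tested genes called higher, with a median of -0.02. Ccnd1, cyclin D1, averaged 180 ± 18.4 in YAP and 135 ± 17.9 in Ctrl kidneys (limma, adjusted p = 0.0326). That call was lost without any single library other than female YAP replicate 2 or female Ctrl replicate 2 (adjusted p 0.0531 to 0.103), in replicate 2 libraries alone (0.409) and without a read filter (0.0551). Pcna, at 148 ± 29.1 in YAP and 135 ± 15.8 in Ctrl kidneys, and Cdk1, at 49.6 ± 9.02 in YAP and 40.1 ± 5.20 in Ctrl kidneys, did not pass (adjusted p 0.661 and 0.193), and Cdk1 passed without male YAP replicate 2 (0.0447). Tradd, of the death receptor list, passed without male Ctrl replicate 1 (0.0459).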
